A study of Mus musculus with 4 samples.

Results

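The nuclear genes for the proteins of the mitochondrial ribosome were compared between Mettl14 knockout (KO) and wild-type (WT) epithelial cells of the mouse colon. Rows of the gene count table were taken whose symbol begins with Mrpl or Mrps followed by a number, with rows named as pseudogenes left out. This gave 78 genes of the 50600 in the table, 49 named Mrpl and 29 named Mrps. All 78 passed the filter on low counts. The data are RNA sequencing libraries of primary cells from the colonic epithelium of C57BL/6 mice, 2 from KO and 2 from WT. No treatment was recorded for either genotype. The sources used here do not state what drove the deletion, how old the animals were or whether animals were pooled. All sample titles share the code 2W, which is not explained and may or may not be an age or a time.

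Mitochondria carry their own ribosome, which makes the few proteins encoded by mitochondrial DNA, all of them subunits of the respiratory chain and the ATP synthase. Its rRNAs come from mitochondrial DNA, whereas all of its proteins are encoded in the nucleus, made in the cytosol and imported. Some of these proteins descend from bacterial ribosomal proteins and others are specific to mitochondria. Mettl14 encodes the RNA-binding partner of Mettl3 in the complex that places N6-methyladenosine (m6A) on mRNA, and colonocytes rely on mitochondrial respiration to oxidise short-chain fatty acids.

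Library totals lay between 22136440 and 24991060 counts, and levels are given in CPM, counts scaled to the library total, after TMM scaling. Mettl14 was at 3.99 and 3.94 CPM in the KO libraries, against 11.7 and 8.67 CPM in the WT libraries. Its log2 fold change was -1.36 (SE 0.22, edgeR adjusted p = 0.0504), just outside the threshold of 0.05. Sex, read from Xist and 4 Y-linked genes, was mixed in both genotypes, with 1 female and 1 male library each. All 12 epithelial markers, all 10 macrophage markers and all 6 fibroblast markers had counts in every library. The epithelial markers summed to 8238 to 8694 CPM in KO and 10211 to 11599 CPM in WT. Of these 12 markers, 9 had a negative log2 fold change and 3 a positive one (Slc26a3, Cdx2 and Cdh1), and edgeR called 0. The macrophage markers summed to 230.5 and 261.3 CPM in KO and to 131.5 and 173.0 CPM in WT. All 10 had a positive log2 fold change, and edgeR called 3 higher (1.72% of all genes). The fibroblast markers stood at 565.3 CPM in KO replicate 2, against 65.8 CPM in KO replicate 1, 52.6 CPM in WT replicate 1 and 75.9 CPM in WT replicate 2. The 4 erythroid markers also stood apart in KO replicate 2, at 6560 CPM, against 1333.7 CPM in KO replicate 1 and 1949.5 and 2696 CPM in WT. The 4 endothelial markers summed to 14.8 and 13.7 CPM in KO and to 5.68 and 9.01 CPM in WT. The 8 lymphocyte and 5 neutrophil markers overlapped between the genotypes in their sums. Of 18 cell cycle genes, edgeR called 6 higher in KO and 0 lower (1.72% and 1.9% of all genes). DESeq2 called 12 of them higher and 1 lower (6.41% and 6.56% of all genes). At an unadjusted p under 0.05 edgeR had 17 higher and 1 lower (14.8% and 15.7% of all genes). Their sum was 521.0 and 508.2 CPM in KO and 349.4 and 331.7 CPM in WT. The part of these shifts in the results on the mitochondrial ribosome was not tested. In bulk samples, fewer cells of a type and less RNA per cell cannot be told apart.

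The summed level of the mitochondrial ribosomal protein transcripts was higher in both KO libraries. The 78 genes together summed to 1610.1 and 1580.7 CPM in the KO libraries, against 1356.4 and 1300.3 CPM in the WT libraries. The 2 genotypes did not overlap, and the ratio of the group means was 1.201, with single KO to WT pairs between 1.17 and 1.24. The 49 Mrpl genes gave a ratio of 1.196 and the 29 Mrps genes 1.21. Of counts outside the mitochondrial genome and its chromosome 1 copies, the 78 genes took 0.285% and 0.290% in KO and 0.231% and 0.201% in WT.

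Gene by gene, 5 of the 78 members rose (Mrpl46, Mrps2, Mrpl19, Mrps34 and Mrps7) and 1 fell (Mrpl24) at an edgeR adjusted p under 0.05. Across all 14861 genes tested, 1.72% were called higher and 1.9% lower, against 6.41% and 1.28% of the members. At an unadjusted p under 0.05, 26 members were higher (33.3%) and 2 lower (2.56%), where all genes gave 14.8% and 15.7%. The log2 fold change was positive in 56 members and in 49% of all genes. Its median was 0.24 for the members (quartiles -0.02 and 0.43) and -0.01 for all genes (quartiles -0.35 and 0.40). Both KO libraries were above both WT libraries for 46 members, or 59%, and below them for 9, or 11.5%. Among all genes tested these shares were 31.1% and 32.2%.

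**Figure D1:**
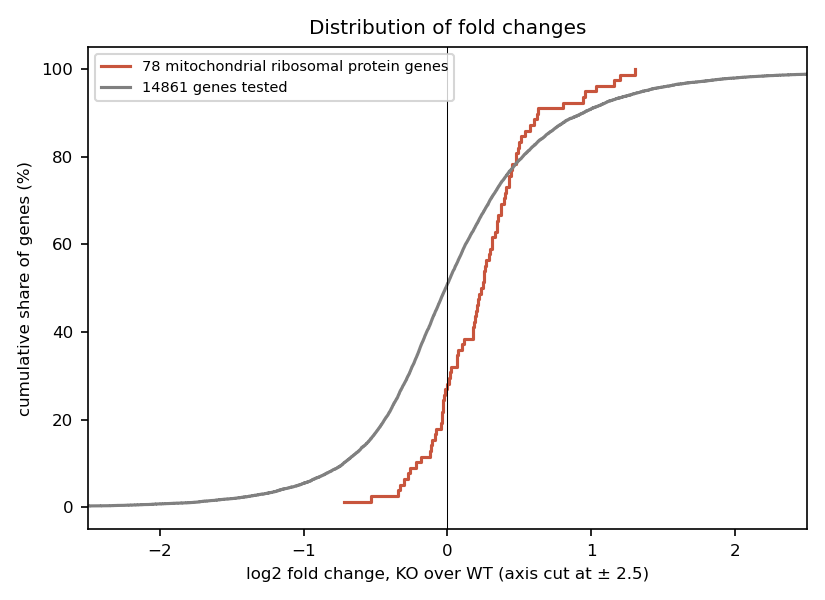
Cumulative share of genes (y axis, percent) against the log2 fold change, KO over WT (x axis, cut at 2.5 on either side), for the 78 mitochondrial ribosomal protein genes and the 14861 genes tested. The members' curve lies to the right through its lower and middle part, with a median of 0.24 against -0.01, and is steeper (SD 0.38 against 0.81).

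The adjusted p-values of the 6 called members lay between 0.0434 and 0.0465, close under the threshold, and 18 members (23.1%, against 18% of all genes) had an edgeR adjusted p under 0.1. When KO replicate 1 or KO replicate 2 was left out, edgeR called 0 members and 0 genes in the whole table; the KO library that remains is then assumed to vary as the WT libraries do. At an unadjusted p under 0.05, 8 members were then higher and 1 lower without KO replicate 1 (7.76% and 6.61% of all genes), and 10 higher and 1 lower without KO replicate 2 (6.58% and 6.37%). The median of the members was 0.17 without KO replicate 1 and 0.27 without KO replicate 2. Without WT replicate 1 edgeR called 8 members higher and 1 lower (3.37% and 4.58% of all genes), and without WT replicate 2, 10 and 1 (8.11% and 6.5%). Upper quartile factors gave 8 and 1 (2.8% and 1.78%). With library size scaling, 8 members were called higher and 0 lower (4.06% and 1.25%), and the median of the members was 0.41. That scaling moved the median of all genes to 0.15, and the members stood 0.25 above it, as they did with TMM.

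Mrpl46, a mitochondria-specific protein of the large subunit (ENSMUSG00000030612, GRCm38 chromosome 7, 78775236 to 78783531), had the largest fold change among the members. It was at 30.4 and 29.1 CPM in the KO libraries, against 10.8 and 13.2 CPM in the WT libraries. The genotypes did not overlap, and the log2 fold change was 1.31 (SE 0.15, edgeR adjusted p = 0.0434). Mrps2, the counterpart of a bacterial small-subunit protein (ENSMUSG00000035772, chromosome 2, 28468066 to 28471178), stood at 27.6 and 30.0 CPM in KO and at 13.2 and 12.6 CPM in WT. Its replicates lay close together in both genotypes, with means of 28.8 ± 1.74 and 12.9 ± 0.441 CPM (SD, n = 2 each), and the log2 fold change was 1.16 (SE 0.12).

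Mrpl19, the counterpart of a bacterial large-subunit protein (ENSMUSG00000030045, chromosome 6, 81957851 to 81965958), was at 20.6 and 21.3 CPM in KO, against 10.5 and 9.97 CPM in WT (log2 fold change 1.03, SE 0.12). Mrps34, a mitochondria-specific small-subunit protein on which the stability of that subunit depends in mice (ENSMUSG00000038880, chromosome 17, 24895116 to 24897502), was at 49.6 and 55.6 CPM in KO and at 27.1 and 27.6 CPM in WT (0.94, SE 0.11). Mrps7, the counterpart of a bacterial protein that binds the rRNA in the head of the small subunit (ENSMUSG00000046756, chromosome 11, 115603925 to 115608036), was at 28.9 and 26.4 CPM in KO and at 16.2 and 15.5 CPM in WT (0.80, SE 0.12, edgeR adjusted p = 0.0465). For each of these 3 genes the lower KO value exceeded the higher WT value.

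Mrpl43 and Mrpl16 had fold changes as large without passing the test, and their WT libraries stood further apart. Mrpl43, a mitochondria-specific large-subunit protein, was at 70.5 and 72.7 CPM in KO, against 25.6 and 36.6 CPM in WT (log2 fold change 1.2, SE 0.19, edgeR adjusted p = 0.0503). It was called in 10 of 14 alternative analyses. Mrpl16, whose bacterial counterpart lies near the site where tRNA is accommodated, was at 16.9 and 16.3 CPM in KO and at 7.47 and 9.64 CPM in WT (0.95, SE 0.17, edgeR adjusted p = 0.0555). It was called in 6 of the 14.

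Mrpl24 (ENSMUSG00000019710, chromosome 3, 87919506 to 87923672) went the other way. Its bacterial counterpart starts the assembly of the large subunit and sits by the exit of the peptide tunnel. It was at 32.9 and 34.1 CPM in KO, against 56.2 and 54.1 CPM in WT. The genotypes were well apart, and the log2 fold change was -0.72 (SE 0.09, edgeR adjusted p = 0.0439), with 11 of 14 alternatives making the call; with library size scaling it was -0.55 and not called (edgeR adjusted p = 0.0796). Mrpl23, whose bacterial counterpart also lies at the tunnel exit, was at 11.3 and 10.4 CPM in KO and at 16.5 and 15.0 CPM in WT (-0.53, edgeR adjusted p = 0.0861). It was below WT in both KO libraries and passed the test in 0 of the 14 alternatives.

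**Figure D2:**
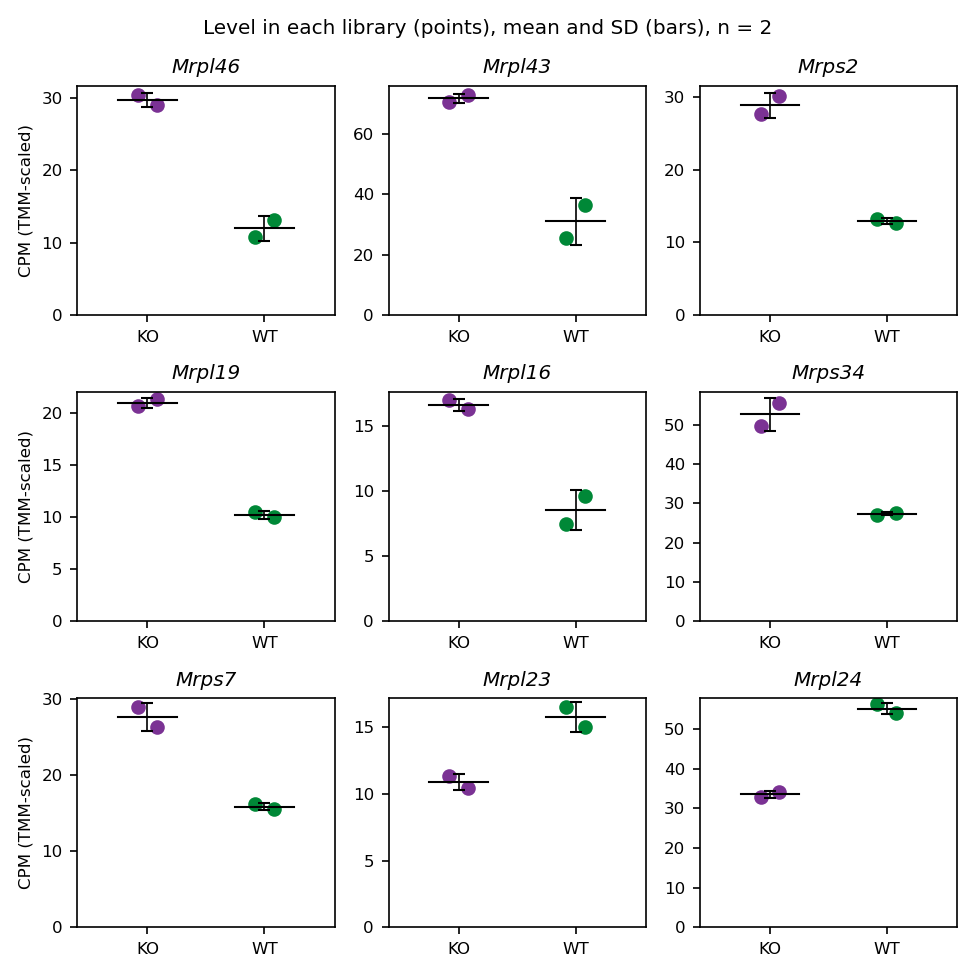
Level in CPM (y axis, TMM-scaled, from 0) in each library for 9 members, KO left of WT, with the mean as a line and the SD as error bars (n = 2). In the first 7 panels both KO points lie above both WT points, and in the panels of Mrpl23 and Mrpl24 they lie below.

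The promoter windows of the 2 members with the largest positive and the 2 with the largest negative log2 fold change are shown so that the start regions of genes at opposite ends of the order can be compared. They are RefSeq windows of GRCm38.p6, from 250 bases before to 50 after the start, read along the gene, and the capitals mark CCGGAAG, the core that ETS factors such as GABPA bind.
Mrpl46, chr7:78783040-78783339, minus strand: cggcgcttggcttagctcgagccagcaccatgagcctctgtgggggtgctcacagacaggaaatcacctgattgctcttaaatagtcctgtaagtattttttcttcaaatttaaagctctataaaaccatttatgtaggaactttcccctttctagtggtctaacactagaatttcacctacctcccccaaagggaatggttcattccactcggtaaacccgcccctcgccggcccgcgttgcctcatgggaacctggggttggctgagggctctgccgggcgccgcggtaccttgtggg
Mrpl43, chr19:45006393-45006692, minus strand: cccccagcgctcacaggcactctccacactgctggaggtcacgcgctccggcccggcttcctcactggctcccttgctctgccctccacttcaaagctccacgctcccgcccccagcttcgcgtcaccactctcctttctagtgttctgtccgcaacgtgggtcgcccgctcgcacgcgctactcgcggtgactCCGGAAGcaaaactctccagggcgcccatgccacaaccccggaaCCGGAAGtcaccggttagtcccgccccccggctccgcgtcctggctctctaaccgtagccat
Mrpl24, chr3:87919294-87919593, plus strand: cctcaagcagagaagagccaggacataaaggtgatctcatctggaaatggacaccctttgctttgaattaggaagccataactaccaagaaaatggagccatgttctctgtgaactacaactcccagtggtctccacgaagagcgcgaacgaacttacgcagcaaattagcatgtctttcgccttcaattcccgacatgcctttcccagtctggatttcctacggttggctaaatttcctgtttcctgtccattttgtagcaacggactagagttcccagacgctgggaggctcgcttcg
Mrpl23, chr7:142532782-142533081, plus strand: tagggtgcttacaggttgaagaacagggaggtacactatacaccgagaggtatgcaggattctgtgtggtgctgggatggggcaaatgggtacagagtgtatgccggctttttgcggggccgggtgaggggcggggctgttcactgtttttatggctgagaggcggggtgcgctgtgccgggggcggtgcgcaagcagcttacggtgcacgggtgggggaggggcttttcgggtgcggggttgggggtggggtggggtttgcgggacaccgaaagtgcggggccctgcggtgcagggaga
Mrpl43 held the ETS core 2 times, both before the start, and the other windows held none of the motifs searched. The RefSeq starts of Mrpl46 and Mrpl23 lie inside their GENCODE genes, so that these windows do not cover the outermost annotated start. The search covered both strands of 75 windows of the 69 members with an entry, and counted motifs separately even where they overlapped. GCGC and TGCGC with any 1 base between them, the core of nuclear respiratory factor NRF1, were in 13 windows (17.3%), against 8.94% of windows of tested genes and 4.6% of all windows. CCGGAAG was in 26 (34.7%), against 16% and 8.86%. AANATGGCG, a YY1 core, was in 11 (14.7%), against 4.53% and 2.38%. The cyclic AMP response element TGACGTCA was in 2 (2.67%, against 2.89% and 1.79%) and the E-box CACGTG in 7 (9.33%, against 9.42% and 7.15%). The median GC content of the windows was 58.7% in the members and 60.0% in tested genes. The median log2 fold change was 0.30 in the 26 members with the ETS core and 0.18 in the 43 without. For the NRF1 core it was 0.25 in 13 members and 0.21 in 56, and for the YY1 core 0.26 in 11 and 0.22 in 58.

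**Figure D3:**
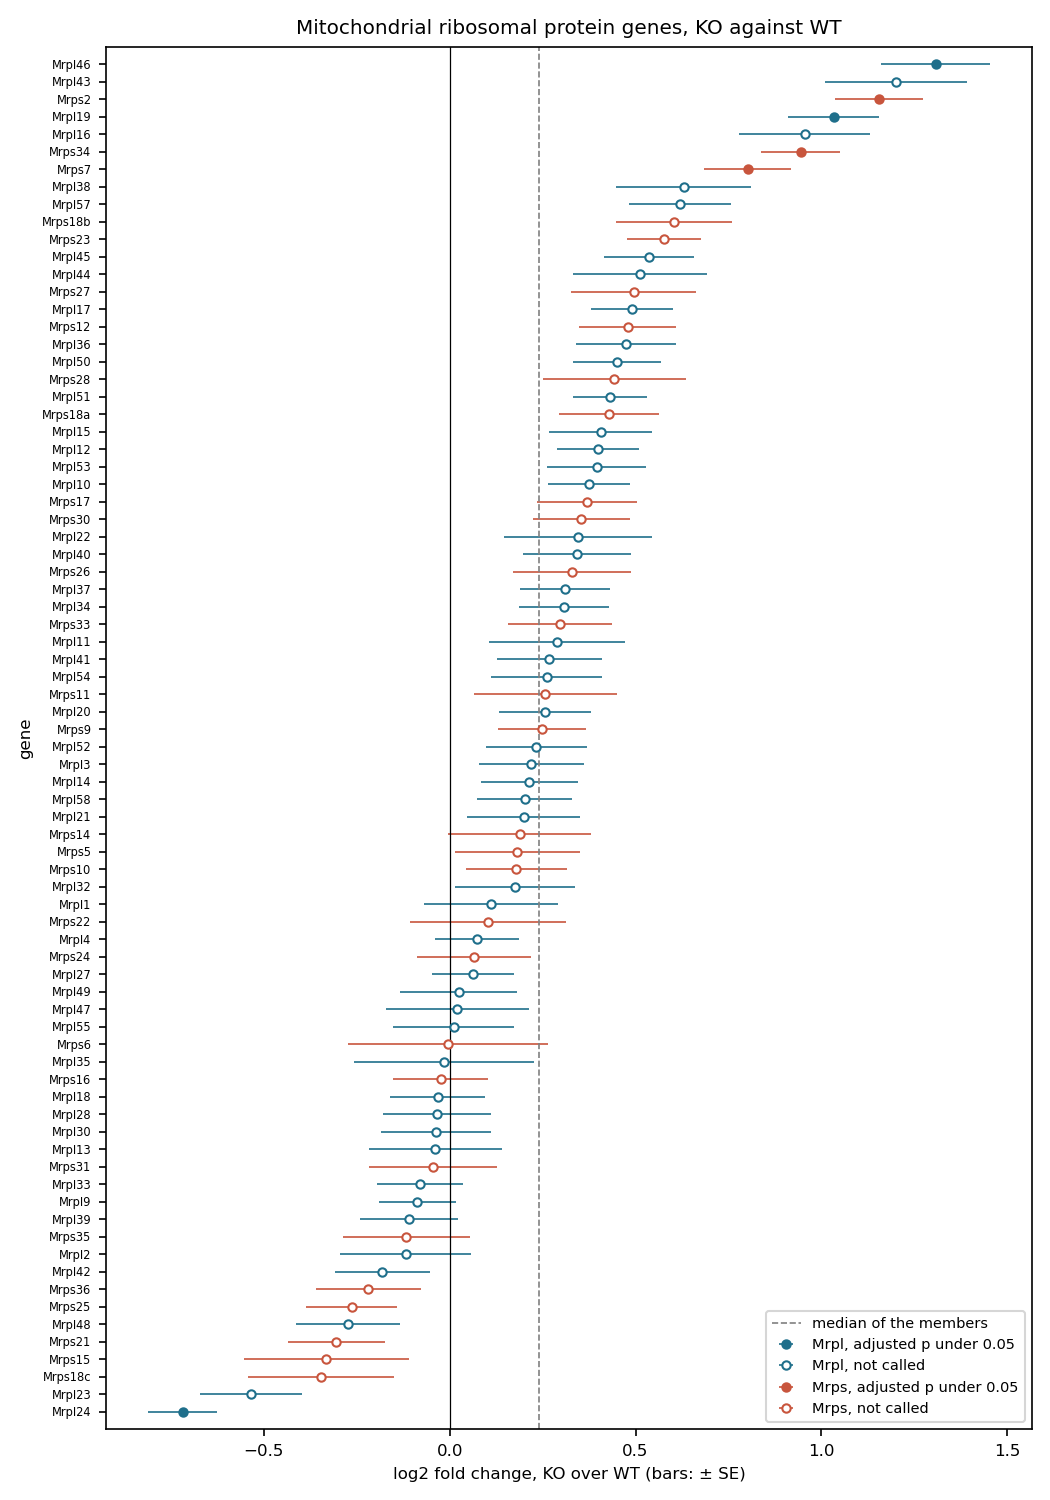
Log2 fold change, KO over WT (x axis, bars show ± SE), of the 78 genes (y axis, ordered), Mrpl in blue and Mrps in red, with filled points for an edgeR adjusted p under 0.05 and a dashed line at the median of 0.24. The values run from -0.72 for Mrpl24 to 1.31 for Mrpl46, and the 7 genes at the top run from Mrpl46 to Mrps7.

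The highest 7 members, the called 5 with Mrpl43 and Mrpl16, lay between 0.80 and 1.31, and the next was Mrpl38 at 0.63. Among the other members with the largest negative values, Mrps18c was at -0.35, Mrps15 at -0.33, Mrps21 at -0.30 and Mrpl48, a mitochondria-specific protein of the central protuberance of the large subunit, at -0.27, with edgeR adjusted p between 0.195 and 0.359. These values moved when 1 library was left out: Mrps15 was at -0.04 without WT replicate 1 and -0.55 without WT replicate 2, and Mrps18c at -0.54 without KO replicate 1, -0.16 without KO replicate 2 and -0.20 without WT replicate 1. Mrpl48 was at -0.17 without WT replicate 1 and Mrps21 at -0.20 without WT replicate 2. For Mrps15 the genotypes overlapped, at 12.3 and 11.6 CPM in KO and 17.9 and 12.2 CPM in WT. The 3 paralogues of one bacterial small-subunit protein did not lie together, with values of 0.43 for Mrps18a, 0.60 for Mrps18b and -0.35 for Mrps18c, and no edgeR call for any of them with all 4 libraries, TMM scaling and the filter. Mrps18b was called in 2 of 14 alternatives, without a filter (edgeR adjusted p = 0.0443) and without WT replicate 1 (edgeR adjusted p = 0.0448). Mrps36, which is counted by its symbol although its protein belongs to the 2-oxoglutarate dehydrogenase complex, was at -0.22 (edgeR adjusted p = 0.343).

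By origin and subunit, the median log2 fold change was 0.35 for 21 mitochondria-specific proteins of the large subunit and 0.14 for 30 large-subunit proteins with a bacterial counterpart. In the small subunit it was 0.31 for 10 mitochondria-specific proteins and 0.19 for 16 with a counterpart. Of the 21 mitochondria-specific large-subunit genes, 17 were above WT in both KO libraries and 3 below. Of the 30 with a counterpart, 15 were above and 2 below, where all genes tested gave 31.1% and 32.2%. The mitochondria-specific large-subunit group includes Mrps30 and Mrps18a, whose proteins sit in the large subunit despite their names. Mrps18a and Mrps18b were listed as mitochondria-specific although they are paralogues of Mrps18c, which was listed with a bacterial counterpart. The difference between these groups was not tested. Calls were 1 higher and 0 lower (mitochondria-specific, large subunit), 1 and 1 (counterpart, large), 1 and 0 (mitochondria-specific, small) and 2 and 0 (counterpart, small). Over all genes tested, 1.72% were called higher and 1.9% lower.

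Per kilobase of annotated exon, Mrpl12 had the highest mean level of the members, at 49.3 CPM per kilobase in KO and 37.3 in WT. Its protein forms the stalk of the large subunit and also binds the mitochondrial RNA polymerase. Mrpl43 followed at 47.1 in KO and 20.5 in WT, Mrps21 at 24.7 and 30.5, Mrpl34 at 29.7 and 24.0, and Mrpl27, whose bacterial counterpart reaches the peptidyl transferase centre, at 24.3 and 23.2. The log2 fold change was 0.31 for Mrpl34 (edgeR adjusted p = 0.17) and 0.06 for Mrpl27 (edgeR adjusted p = 0.729). The lowest were Mrpl13 and Mrps10, both with bacterial counterparts (1.28 in KO and 1.31 in WT, 1.45 in KO and 1.28 in WT), and the mitochondria-specific Mrps22 (1.80 and 1.68), so that levels spanned a ratio of 33.4 between the top and the bottom. These levels depend on exon lengths pooled over all annotated transcripts, which ran from 607 to 8631 bases and may be longer than the transcripts present. Mrpl12 itself was at 76.3 and 74.7 CPM in KO and at 60.8 and 53.6 CPM in WT (log2 fold change 0.40, edgeR adjusted p = 0.0953). Mrps6, the counterpart of a bacterial small-subunit protein, was at 34.5 and 31.3 CPM in KO and 24.5 and 41.4 CPM in WT. Its WT libraries stood further apart than its KO libraries and enclosed them (log2 fold change -0.00, SE 0.27), and it was at -0.34 without WT replicate 1 and 0.46 without WT replicate 2.

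Within each sex, 1 KO library can be set against 1 WT library, without a test. Of the 78 members, 63 were higher in KO in the female pair (median log2 ratio 0.31) and 51 in the male pair (0.19). All genes gave medians of 0.01 in the female and -0.03 in the male pair. The direction was higher in both pairs for 48 members, and 37.5% of all tested genes were higher in both. It was lower in both pairs for 12 members, and the share of all genes lower in both was not computed. An alternative chosen after the data were seen put sex in edgeR as a covariate, which leaves fewer residual degrees of freedom. In that fit, 8 members were called higher and 1 lower (4.68% and 4.8% of all genes). Those were the members called before together with Mrpl43, Mrpl16 and Mrps23. Mrps23, named for this reason, is a mitochondria-specific small-subunit protein, at 34.3 and 36.3 CPM in KO and 23.6 and 23.8 CPM in WT. DESeq2 called the same 9 genes, where it called 6.41% of all genes higher and 6.56% lower.

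Several of these genes share their locus with another gene, and the sources used here do not say whether counting used strand, so that reads from overlapping genes cannot be told apart. Exon bases were shared with a protein-coding gene in 23 members. For Mrpl43, 507 of 1520 exon bases overlap Twnk on the opposite strand, which was at 5.85 and 7.21 CPM in KO and at 6.36 and 5.85 CPM in WT. Mrpl46 shares 173 of 1415 exon bases with Mrps11, also a member and on the opposite strand (log2 fold change 0.26, edgeR adjusted p = 0.409). Mrps34 shares 1309 of 2064 exon bases with Mapk8ip3 on the opposite strand (-0.17) and 763 with Nme3 on the same strand (-0.24). Mrpl19 shares 1962 of 5450 with Gcfc2 (0.46), and Mrpl24 shares 594 of 2255 with Rrnad1 (-0.39, edgeR adjusted p = 0.211), both on the opposite strand. Mrps6 shares 159 of 1533 exon bases with Slc5a3 on the same strand. Slc5a3 was at 9.09 and 6.35 CPM in KO and at 14.4 and 24.1 CPM in WT (-1.32, edgeR adjusted p = 0.0833). None of these partners was called by edgeR. The 5 pseudogene rows left out held at most 7 counts in any library.

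By the outermost annotated starts, a coding gene on the opposite strand began within 1000 bases upstream in 18 members (23.1%), against 9.51% of 13523 tested coding genes. Head-to-head pairs that overlap, such as Mrpl46 and Mrps11, were not counted in this way. Some of the counted pairs had log2 fold changes of the same sign and others of opposite sign. Mrps34 rose while its neighbour Eme2, 29 bases away, had a log2 fold change of -0.66 (edgeR adjusted p = 0.077). Mrps12 was at 0.48 and Sars2, the mitochondrial seryl-tRNA synthetase 172 bases away, at 0.17. Mrpl2 was at -0.12, though 0.04 with library size scaling, and Klc4, 207 bases away, fell by 0.77 on the log2 scale (edgeR adjusted p = 0.0444, but 0.0707 with library size scaling).

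The transcripts were short. The longest coding transcript had a median of 1328 bases in the members, against 3109 bases in tested coding genes. GGACT, the commonest form of the sequence that the Mettl3 and Mettl14 complex methylates, occurred at 1.02 per kilobase in the members and 1.10 per kilobase in tested coding genes. It was missing from 13 members (16.7%) and from 7.35% of tested coding genes. Mrpl46 held it 3 times, Mrps2 2 times, Mrpl19 4 times and Mrpl24 4 times, and Mrpl16 not at all. Methylation itself was not measured in these libraries, and a match is not a methylated site.

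The other genes of mitochondrial translation were taken from lists. Of the 5 ribosomal subunits with other symbols, edgeR called 0 and DESeq2 0. At an unadjusted edgeR p under 0.05, 1 was higher and 1 lower (14.8% and 15.7% of all genes). Dap3, a GTP-binding protein of the small subunit, was at 20.5 and 19.5 CPM in KO, against 30.9 and 25.5 CPM in WT (log2 fold change -0.49, edgeR adjusted p = 0.0991). The small-subunit genes Chchd1 (0.35), Ptcd3 (-0.01) and Aurkaip1 (-0.01) and the large-subunit gene Gadd45gip1 (0.33) were not called either. Ptcd3 and Aurkaip1 changed sign between scalings.

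Translation factors gave 0 edgeR calls among 16 tested. At an unadjusted p under 0.05, 2 were higher and 0 lower (14.8% and 15.7% of all genes), and DESeq2 called 1 higher (6.41% of all genes). Their median was 0.10, with the elongation factor Tufm at 62.8 ± 4.92 CPM in KO and 51.5 ± 3.49 CPM in WT (SD, n = 2 each) and the mRNA-binding Lrpprc at 42.7 ± 0.986 and 33.4 ± 6.46 CPM. Assembly and rRNA modification factors gave 0 edgeR calls among 29 and a median of 0.10. At an unadjusted p under 0.05, 5 were higher and 1 lower (14.8% and 15.7% of all genes), and DESeq2 called 2 higher (6.41% of all genes). Among them the RNA helicase Dhx30 was at 0.28 and the protease subunit Afg3l2 at -0.22. Of 20 genes for charging mitochondrial tRNA, with a median of 0.12, Ears2, the glutamyl-tRNA synthetase, rose to 10.2 and 12.2 CPM in KO, against 5.01 and 4.88 CPM in WT (1.18, edgeR adjusted p = 0.0469). At an unadjusted p under 0.05, 4 of these 20 genes were higher and 3 lower (14.8% and 15.7% of all genes). Mars2, the methionyl-tRNA synthetase, was at 2.88 and 2.42 CPM in KO and at 7.42 and 6.19 CPM in WT (-1.36, edgeR adjusted p = 0.0528), and was called in 5 of 14 alternatives. The abundant Lars2 (0.12) and Iars2 (-0.20) were not called.

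Among 16 regulators of mitochondrial transcription and biogenesis, with a median of 0.16, 2 related coactivators were called in opposite directions. Over all genes tested, edgeR called 1.72% higher and 1.9% lower. Pprc1 was at 22.7 and 24.4 CPM in KO, against 10.2 and 9.76 CPM in WT (log2 fold change 1.24, SE 0.12, edgeR adjusted p = 0.0434). Ppargc1a was at 13.4 and 12.6 CPM in KO, against 28.0 and 35.2 CPM in WT (-1.28, SE 0.16, edgeR adjusted p = 0.0434). The abundant Esrra (-0.35), a nuclear receptor that works with these coactivators, and Gabpb2 (0.17), a GABP subunit, were not called.

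**Figure D4:**
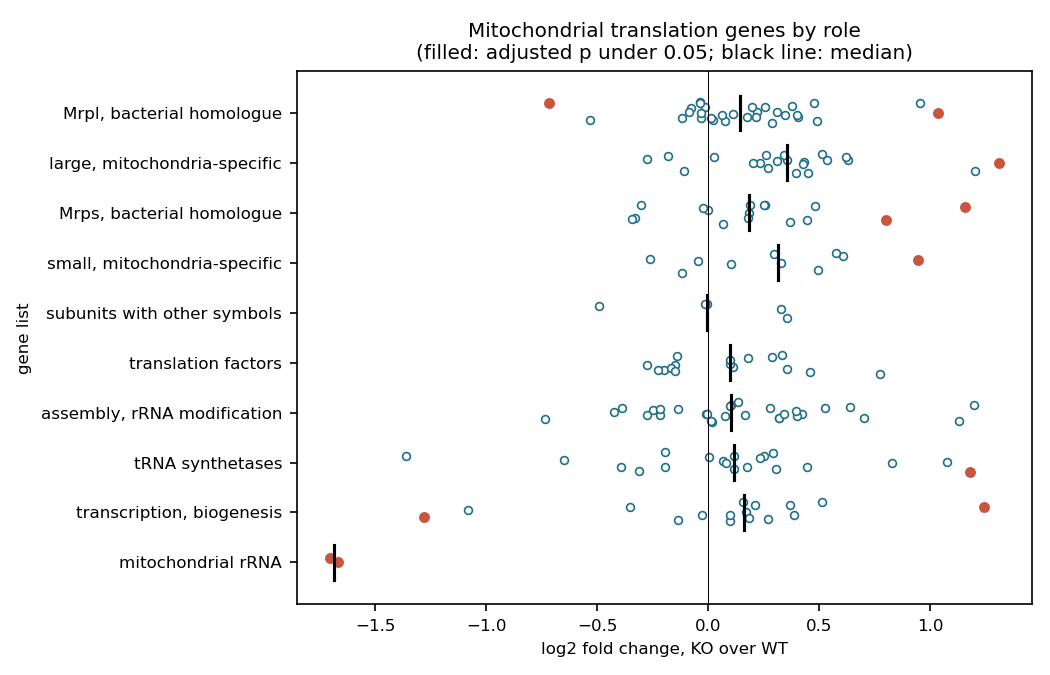
Log2 fold change, KO over WT (x axis), of genes of mitochondrial translation grouped by role (y axis), filled where the edgeR adjusted p was under 0.05, with the median of each list as a black line. The 4 groups of members have medians between 0.14 and 0.35, the lists of factors between 0.10 and 0.16, and both rRNAs lie near -1.7.

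The rRNAs of the same ribosome were lower in KO, opposite in direction to most mRNAs for its proteins. Of these 78 mRNAs, 56 had a positive log2 fold change, against 49% of all genes tested, and 72 were not called. Over all genes tested, edgeR called 1.72% higher and 1.9% lower. Protein was not measured. The small-subunit rRNA mt-Rnr1 was at 2599.9 and 1793.7 CPM in KO, against 7102 and 6854 CPM in WT (log2 fold change -1.67, SE 0.26, edgeR adjusted p = 0.0472, but 0.0514 with RLE factors or the robust option off). The large-subunit rRNA mt-Rnr2 was at 4264 and 3626 CPM in KO and at 12930 and 12748 CPM in WT (-1.70, SE 0.21, edgeR adjusted p = 0.0434). Libraries were made from RNA selected with oligo-dT, so these values count only rRNA captured that way and are not total rRNA. The share of counts on the whole mitochondrial genome was 32.7% and 28.6% in KO and 33.8% and 28.8% in WT.

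**Figure D5:**
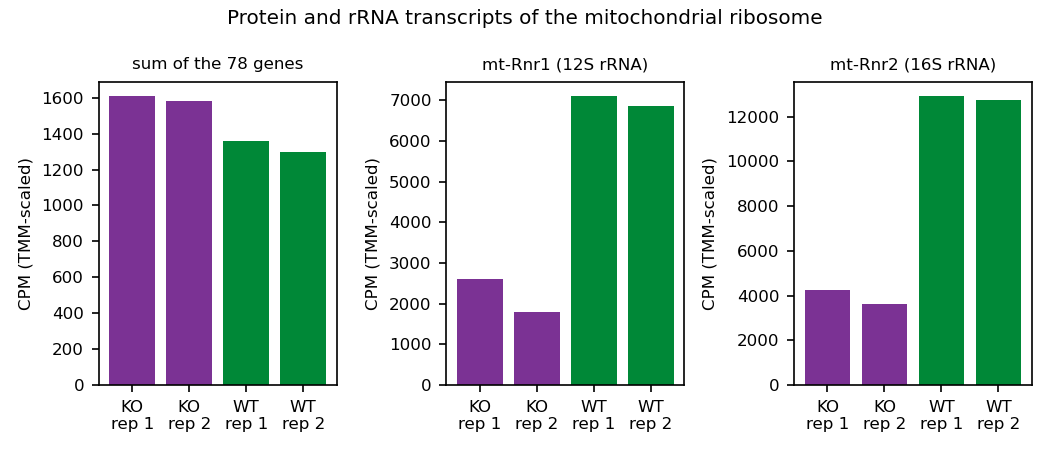
CPM (y axes, TMM-scaled, from 0) in each library, KO left of WT, for the sum of the 78 protein genes and for the rRNAs mt-Rnr1 and mt-Rnr2. The sum of the protein gene transcripts is 1580.7 and 1610.1 in KO and 1300.3 and 1356.4 in WT, whereas both rRNAs are lower in KO.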

How the data were processed

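The deposited values are raw counts, whole numbers whose sums differ between libraries. FastQC 0.11.2, RSEM 1.2.29, STAR 2.4.2a and build mm10 are named, without roles, per the submitters' processing notes. Rounding, annotation and strandedness of the counting are not stated there. All 4 columns matched a sample title, and 0 were left over. Groups come from the genotype label and replicate numbers from accession order. P-values reflect the spread among these libraries. Within each genotype the libraries were read as different sexes, so they come from different animals or pools and their spread is not only technical.

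Genes passing filterByExpr (14861 of 50600) were tested with edgeR 4.0.16 (R 4.3.3; TMM, quasi-likelihood F-test, legacy and robust options on, 2 residual degrees of freedom), two-sided, with Benjamini-Hochberg adjustment over all tested genes and a threshold of 0.05. The SE is the log2 fold change divided by the root of F. The fit was run on simulated data with the same dispersion for every gene. The check made there covered only the direction of large planted changes and does not bear on calls near the threshold. A count of 0 allows up to 3 counts (0.12 to 0.136 CPM, counting error only). Coordinates (1-based), exons and transcripts are from GENCODE M21 (GRCm38), which held all 78 members. Alternatives were other scalings, DESeq2 1.42.0, limma-voom 3.58.1, other filters, robust off, omission of mitochondrial genes or of 1 library, and sex as a covariate (added later).

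Members and lists were chosen with earlier results of these data known. Named are called members, the 6 largest changes in each direction among members with a mean of at least 5 CPM, the 5 highest and 3 lowest per kilobase, subunits with other symbols, called and the 2 most abundant genes of other lists, the rRNAs and Mettl14. Others named for a shared locus, promoter or bacterial origin, as the next in order, for their spread or for a change near the threshold were chosen after their values were seen.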

Additional observations from a re-analysis of the deposited data

How the results depend on the processing

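The count of members called higher, 5, was 8 with library size scaling, upper quartile factors, DESeq2 and sex as a covariate, 10 without a filter, and 0 to 10 when 1 library was left out. The count called lower, 1, was 0 with library size and 0 to 1 when 1 library was left out. Over all genes, the 255 higher and 282 lower became 604 and 186 with library size, 952 and 975 with DESeq2, 862 and 770 without a filter and 696 and 713 with sex as a covariate. Upper quartile factors gave 416 higher. Dropping the filter raised the number of genes tested from 14861 to 24337, and the share of them called higher from 1.72% to 3.54%. The change from 5 to 10 members there went along with this rise over all genes. Leaving out 1 library gave 0 to 1271 higher and 0 to 1019 lower. The median log2 fold change of the members, 0.24, was 0.41 with library size, 0.31 with upper quartile factors and 0.17 to 0.29 when 1 library was left out. The cause of these moves was not tested, beyond there being fewer samples without a library. Replicate numbers follow accession order and pair no libraries, so none served as a block; libraries of 1 sex were matched through the fit with sex as a covariate.

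In all 15 fits, 51 members were positive and 9 negative, and 18 changed sign; 13 members that were negative with TMM were positive with library size. Named genes near 0 reversed. Mrpl13 was at 0.127 with library size and 0.0305 with upper quartile factors, Ptcd3 at 0.157 and 0.0547, and Aurkaip1 at 0.153 and 0.0639. Without mitochondrial genes Ptcd3 was at 0.0151 and Aurkaip1 at 0.0219, and without a filter at 0.0134 and 0.0153. Ptcd3 was at 0.00992 with limma-voom, and Aurkaip1 at 0.00236 with RLE factors and 0.0022 with DESeq2. When 1 library was left out, Mrpl13 ranged over -0.170 to 0.134, Mrps22 over -0.0516 to 0.307, Ptcd3 over -0.182 to 0.206, Aurkaip1 over -0.120 to 0.136, Lars2 over -0.0950 to 0.402, Mrps6 over -0.342 to 0.458 and Mrpl2 over -0.266 to 0.0753. Mrpl2 was at 0.0435 with library size. Mrps6 was at 0.00389 with RLE factors, 0.156 with library size, 0.0707 with upper quartile factors, 0.0259 without mitochondrial genes, 0.00449 with DESeq2, 0.0368 with limma-voom, 0.0156 without a filter, 0.00296 with a filter of CPM 1 and 0.0418 with sex as a covariate.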
